A study of Mus musculus with 14 samples.

Results

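The transcription factor p53, encoded by Trp53, and 32 of its target and partner genes were followed in fibro-adipogenic progenitors (FAPs), stromal cells of muscle that are able to become fat or fibrous tissue. The members were taken as a list of 33 symbols and matched on the gene symbol column of each deposited table; the matching itself used no measured value. All 33 were found among the 56953 genes of the BaCl2 table and 32 among the 14330 genes of the glycerol table, where Perp is not listed. All 33 passed the filter on low counts after BaCl2, and the glycerol table was tested whole. The cells came from the TA muscle of mice with the genotype labelled SMA, taken here as spinal muscular atrophy, and of WT mice, and were isolated by magnetic sorting 3 days after injury. After BaCl2, a salt that destroys muscle fibres, there were 3 SMA and 3 WT libraries. After glycerol, an injury that leaves more fat, there were 4 SMA and 4 WT libraries. The labels give neither the SMA allele, the sorting antibodies nor the age, and list the injury under batch, which leaves batch and injury impossible to separate: they cannot be told apart. They do not say whether libraries come from separate mice, so the p-values measure the spread between libraries, which may be technical.

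p53 is a stress-activated factor whose protein is held low by Mdm2, an enzyme that marks it for destruction, and by the related inhibitor Mdm4. Because control acts mainly on the protein, p53 activity is usually read from its targets, which halt the cell cycle, start cell death, repair DNA or adjust metabolism. Mdm2 is itself a target, which closes a feedback loop. In motor neurons lacking the SMN protein p53 is known to be activated, and the values here ask how its targets stood in another cell type of SMA muscle.

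Library totals after BaCl2 ran between 97.7 M and 136 M counts (M, mega), and levels are given as CPM, counts per M of the library after TMM scaling. The glycerol values are the authors' normalized counts, and their depth is unknown. Smn1, the gene lowered in this disease model, averaged 11.1 ± 1.0 CPM in SMA against 16.1 ± 0.937 CPM in WT libraries after BaCl2 (SD, n = 3 each), and 745 ± 75.9 and 1084 ± 113 normalized counts in SMA and WT libraries after glycerol (n = 4 each), with no overlap in either. SMA libraries 1 and 2 of BaCl2 stood apart in Hal, a liver and skin enzyme gene, at 16.0 and 15.9 CPM, against 0.510 CPM in SMA library 3 and 0.205 to 0.251 CPM in the WT libraries. The FAP markers were present in every library, with Pdgfra at 714 to 1015 CPM and 59457 to 77915 normalized counts. In bulk RNA, fewer cells of a type and less RNA per cell cannot be told apart.

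Markers of other cells differed between the genotypes in the same libraries. Of 16 macrophage and monocyte markers, 15 passed as higher in SMA after BaCl2 (edgeR adjusted p under 0.05). The summed level of the 16 was 2130 to 3215 CPM in SMA against 1174 to 1640 CPM in WT libraries. After glycerol 5 of 16 were higher, with sums of 123490 to 302580 normalized counts in SMA and 108420 to 140000 in WT libraries. None of the 16 was at 0 in any library. SMA library 3 of glycerol had the lowest of the SMA sums and lay inside the WT range. Of 12 FAP markers, 4 passed as lower after BaCl2 in edgeR (sums of 41408 to 54582 CPM in SMA against 61602 to 68189 CPM in WT libraries). After glycerol 0 passed in limma (sums of 3367200 to 4261300 in SMA against 3322400 to 4704100 normalized counts in WT libraries). Other lists are given in brief. After BaCl2 there passed 2 higher and 1 lower of 7 neutrophil, 4 higher of 8 Schwann cell, 1 lower of 5 satellite cell, 1 higher and 1 lower of 7 pericyte, and none of 8 endothelial, 7 myofibre and 18 immediate early genes tested. After glycerol there passed 1 higher of 7 neutrophil, 3 lower of 8 endothelial, 1 lower of 7 pericyte and 2 higher of 18 immediate early genes, and none of 7 Schwann cell, 5 satellite cell and 6 myofibre genes. The part of these cells in the values below was not tested.

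After BaCl2, 3 of the 33 members passed as higher in SMA FAPs in edgeR and none passed as lower. They were Mdm2, the cell cycle inhibitor gene Cdkn1a and the cell death gene Pmaip1, by 1.26-fold to 1.33-fold. This is 9.09% of the members, beside 4.29% of the 20119 genes tested by edgeR at an adjusted p under 0.05 (2.73% higher, 1.56% lower). An unadjusted p under 0.05 was found for 8 of 33 members, beside 19.3% of all genes. The authors' deposited table calls 4 higher and 3 lower of 32 members after BaCl2 (21.9%, beside 13.8% of the genes with an adjusted p). After glycerol none of the 32 passed in limma, beside 2.87% of 14330 genes (1.70% higher, 1.17% lower), while 5 of 32 had an unadjusted p under 0.05, beside 23.3% of all genes, and the authors' deposited table calls 2 higher and 1 lower. The members' median log2 fold change was -0.01 after BaCl2 and 0.02 after glycerol, beside 0.00 over all genes in both. Their median absolute log2 fold change was 0.07 after BaCl2, against 0.16 over all genes, and 0.13 after glycerol, against 0.13. All genes here are those tested, which were not matched to the members in level. The libraries of the genotypes did not overlap at 8 of 33 members after BaCl2 (24.2%, beside 25.3% of all genes) and at 4 of 32 after glycerol (12.5%, beside 14.1%). After BaCl2, 4 were separated above and 4 below, beside 12.2% and 13.1% of all genes. After glycerol, 3 were separated above and 1 below, beside 6.59% and 7.54%. These shares of separated members are near the background.

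**Figure D1:**
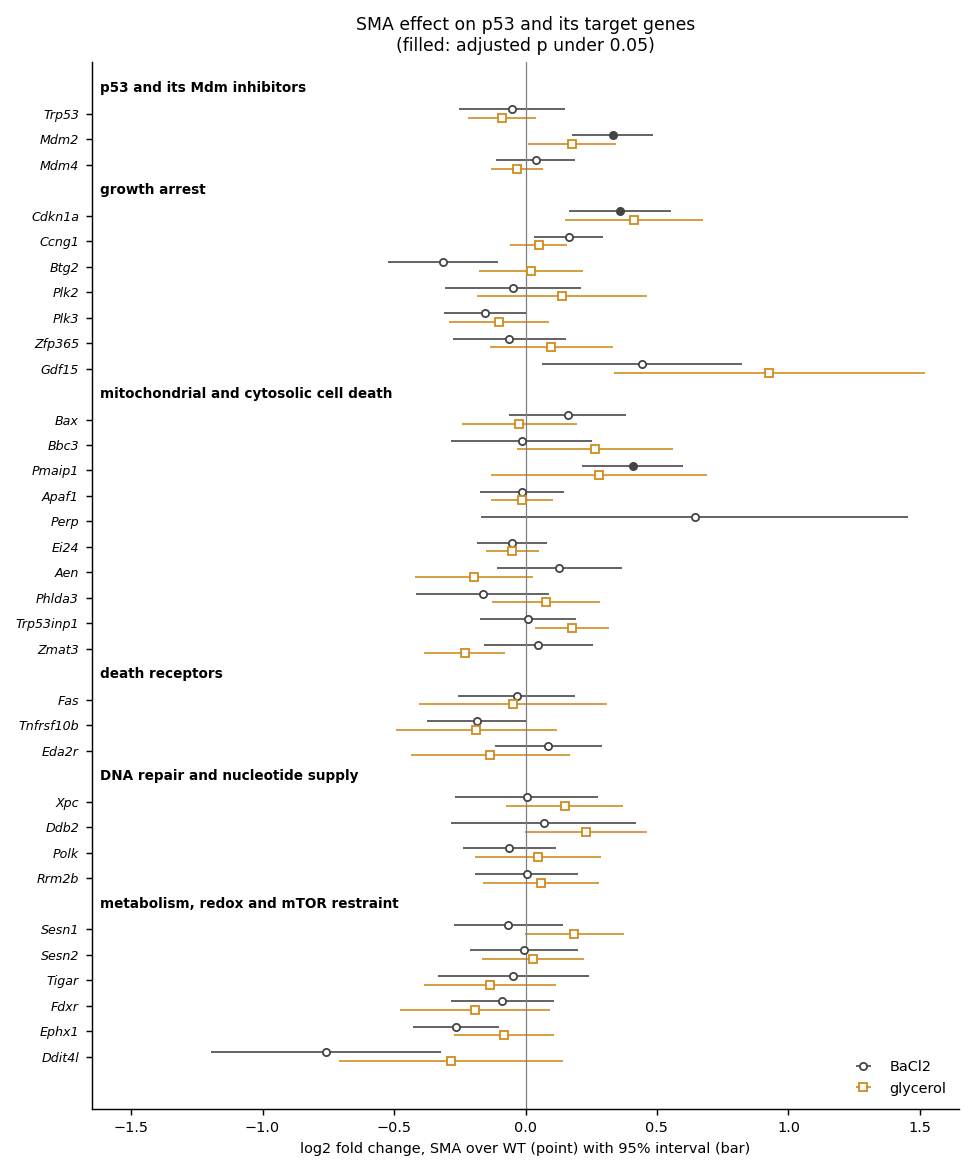
Log2 fold change of SMA over WT for each member after BaCl2 (circles) and glycerol (squares), with 95% intervals, grouped by role; filled points passed an adjusted p under 0.05. Only Mdm2, Cdkn1a and Pmaip1 after BaCl2 are filled, and Gdf15 after glycerol (0.93) and Ddit4l after BaCl2 (-0.76) lie farthest from 0.

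p53 and Mdm4 themselves did not pass in either injury. Trp53 stood at 104.6, 98.8 and 87.1 CPM in SMA libraries 1 to 3 after BaCl2, against 88.5, 104.6 and 108 CPM in WT libraries. After glycerol it was at 7303, 6948, 7946 and 6734 normalized counts in SMA, against 7388, 7759, 7960 and 7646 in WT libraries. The genotypes overlapped in both, with log2 fold changes of -0.05 after BaCl2 (95% interval -0.25 to 0.15) and -0.09 after glycerol (-0.22 to 0.04). Mdm4 was at 53.1, 56.9 and 56.9 CPM in SMA against 54.0, 50.6 and 57.8 CPM in WT libraries after BaCl2. After glycerol it was at 4592, 4759, 4800 and 4928 normalized counts in SMA and 4827, 4860, 5080 and 4741 in WT libraries. These are levels of the whole gene, which say nothing of the exons used. Its log2 fold change was 0.04 (-0.11 to 0.19) after BaCl2 and -0.03 (-0.13 to 0.07) after glycerol.

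Mdm2 rose after BaCl2. It was at 303, 276 and 265 CPM in SMA libraries 1 to 3, against 211, 234 and 226 CPM in WT libraries. Every SMA library lay above every WT library, and the means were 281 ± 19.8 CPM in SMA and 224 ± 11.8 CPM in WT (SD, n = 3 each), 1.26-fold. The log2 fold change was 0.33 (SE 0.07, edgeR adjusted p = 0.0274). After glycerol Mdm2 stood at 23142, 25063, 22374 and 28259 normalized counts in SMA, against 22336, 20637, 22782 and 21306 in WT libraries. There SMA libraries 1, 2 and 4 were above the whole WT range and SMA library 3 was inside it, with a log2 fold change of 0.18 (SE 0.07, limma adjusted p = 0.19).

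**Figure D2:**
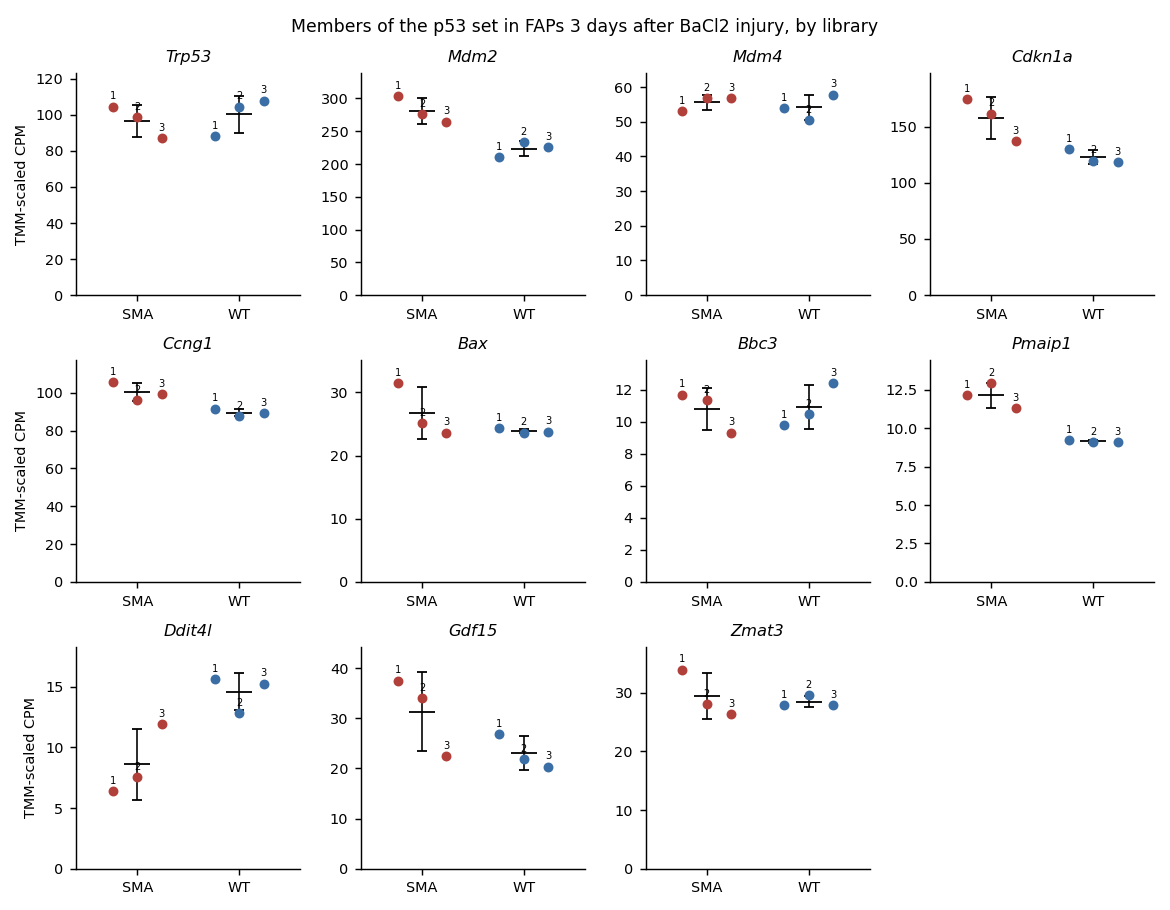
TMM-scaled CPM of 11 members in each BaCl2 library, SMA at the left and WT at the right of each panel; numbers are library numbers, and the black bar with whiskers is the mean ± SD (n = 3). In the panels of Mdm2, Cdkn1a, Ccng1 and Pmaip1 all SMA points lie above all WT points, and in that of Ddit4l all lie below.

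The windows before the transcription starts of Cdkn1a and Mdm2 are shown because both passed after BaCl2 and have an entry in RefSeq's promoter table (GRCm38.p6). The files' own build is not given in the sources used here. Capitals mark the consensus decamer of the p53 response element (3 purines, C, 2 bases A or T, G, 3 pyrimidines), which reads the same on both strands. Each window is the 250 bases before the start, 5′ to 3′ on the strand of the gene.

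Cdkn1a, chr17:29090729-29090978, + strand: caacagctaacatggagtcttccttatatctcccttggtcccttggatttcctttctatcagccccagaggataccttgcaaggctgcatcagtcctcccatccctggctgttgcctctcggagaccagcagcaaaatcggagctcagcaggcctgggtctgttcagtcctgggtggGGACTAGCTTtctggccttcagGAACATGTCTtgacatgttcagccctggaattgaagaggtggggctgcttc

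Mdm2, chr10:117710759-117711008, - strand: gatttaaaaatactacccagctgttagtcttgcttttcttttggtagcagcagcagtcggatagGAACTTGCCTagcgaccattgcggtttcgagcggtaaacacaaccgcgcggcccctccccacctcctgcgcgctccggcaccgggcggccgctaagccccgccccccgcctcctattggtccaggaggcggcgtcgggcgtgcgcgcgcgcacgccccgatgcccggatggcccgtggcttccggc

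The Cdkn1a window, at the upstream one of its 2 starts, held 2 decamers 12 bases apart, from 73 to 42 bases before the start. Only exact matches are in capitals. The bases tgacatgttc, directly after the second decamer, miss the consensus at their first base only and could pair with it without a spacer. Which pair p53 uses was not tested. A pair of exact decamers with a spacer of at most 13 bases was the form searched for as a full p53 site. It occurred in 0.0731% of the 32851 promoter windows of all genes (300 bases, with 50 after the start). The window of the second Cdkn1a start held no decamer. Mdm2 held 1 decamer, from 186 to 177 bases before its start. Sites outside the windows were not searched for either gene. At least 1 decamer was in 11 of the 33 windows of the 25 members with an entry (33.3%), against 8.36% of all windows. The members were listed as p53 targets, and a match is a description of the letters, not of binding.

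Of the 7 growth arrest genes 1 passed after BaCl2 and none after glycerol in limma. The one that passed was Cdkn1a, which encodes the kinase inhibitor p21 and is the classic p53 target. It was at 174, 162 and 137 CPM in SMA libraries 1 to 3 after BaCl2, against 130, 119.9 and 119 CPM in WT libraries. It rose by 0.36 on the log2 scale (SE 0.09, edgeR adjusted p = 0.0479), with means of 158 ± 19.0 CPM in SMA and 123 ± 6.30 CPM in WT (n = 3 each, 1.28-fold). After glycerol it stood at 13563, 16949, 13707 and 20132 normalized counts in SMA, against 11702, 11887, 11764 and 12379 in WT libraries. Every SMA library was above every WT library here as well, by 1.35-fold on the means and 0.41 on the log2 scale (SE 0.12), but with no pass (limma adjusted p = 0.0834). In the authors' deposited table the glycerol value passes (0.43, adjusted p = 0.0122). For Cdkn1a an exact permutation test, two-sided, gave p = 0.1 after BaCl2 and 0.0286 after glycerol, the smallest that 3 against 3 and 4 against 4 libraries allow.

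Gdf15, a secreted stress hormone of the TGF-beta family, had the largest difference after glycerol. It stood at 3610, 4952, 2099 and 5356 normalized counts in SMA libraries 1 to 4, against 1664, 2263, 1928 and 2115 in WT libraries. SMA libraries 1, 2 and 4 were above the WT range and SMA library 3 within it, and the means were 4004 ± 1473 in SMA and 1992 ± 259 in WT (n = 4 each, 2.01-fold). The log2 fold change was 0.93 (SE 0.26) with a limma adjusted p = 0.0841, and the authors' deposited table calls it (1.01, adjusted p = 0.0013). After BaCl2 Gdf15 stood at 37.5, 34.0 and 22.4 CPM in SMA, against 26.9, 21.8 and 20.4 CPM in WT libraries. The libraries overlapped through SMA library 3 (0.44, SE 0.17, edgeR adjusted p = 0.191).

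Within the SMA libraries, but not the WT ones, several of these genes had the order of the macrophage marker sums. After BaCl2 the marker sum was 3215, 2618 and 2130 CPM in SMA libraries 1 to 3, and Mdm2, Cdkn1a and Gdf15 had the same order, while Pmaip1 was highest in library 2. In the WT libraries 1 to 3 the sum was 1640, 1174 and 1262 CPM, where Mdm2 had the reverse order and Cdkn1a and Gdf15 another one. After glycerol it was 221510, 258040, 123490 and 302580 normalized counts in SMA libraries 1 to 4. Gdf15 had that order again, with library 3 lowest and library 4 highest, and Mdm2 as well, while Cdkn1a in library 3 was above library 1. The WT sums of 136760, 108420, 119270 and 140000 normalized counts were not in the order of Gdf15, Mdm2 or Cdkn1a. The order after glycerol was not particular to Gdf15 and Mdm2. In the SMA libraries Bax, Plk3, Phlda3 and Xpc had it too (log2 fold changes of -0.02, -0.10, 0.08 and 0.15). Trp53, Zfp365, Tnfrsf10b and Ddit4l had the reverse order there. The order after BaCl2 was not particular to Mdm2, Cdkn1a and Gdf15. In SMA libraries 1 to 3 Trp53, Bax, Bbc3, Aen, Phlda3, Zmat3, Zfp365, Eda2r, Sesn2 and Tigar had it too. So did Tnfrsf10b (33.1, 31.3 and 26.4 CPM), which was on the low side in SMA. Apaf1, Sesn1, Btg2, Plk2, Xpc, Ddb2 and Ddit4l had the reverse order, as did the FAP marker sum (41408, 46117 and 54582 CPM). Whether the markers' cells carry the transcripts of Mdm2, Cdkn1a or Gdf15 was not tested.

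**Figure D3:**
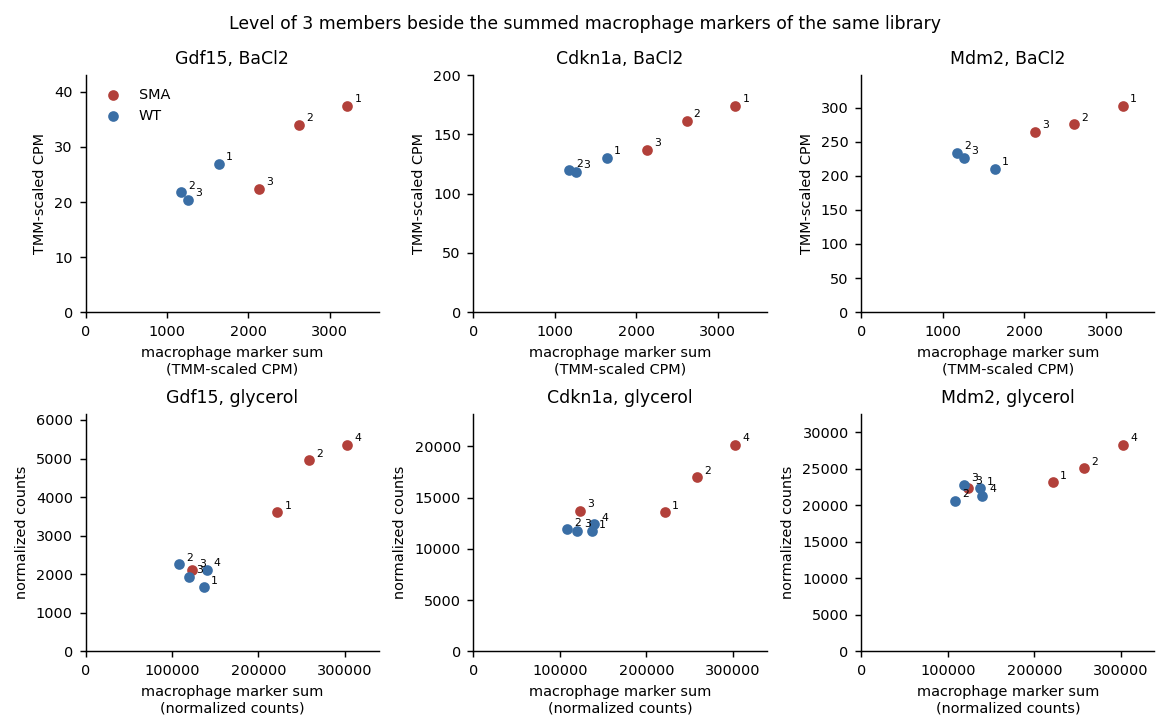
Level of Gdf15, Cdkn1a and Mdm2 (y axis) against the summed level of 16 macrophage and monocyte markers (x axis) in each library, for BaCl2 in TMM-scaled CPM (top) and glycerol in normalized counts (bottom); numbers are library numbers. SMA library 3 of glycerol, at a marker sum of 123490, sits among the WT libraries for Gdf15 and Mdm2.

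The other growth arrest genes did not pass. Ccng1, which encodes cyclin G1, a partner of the phosphatase that acts on Mdm2, was at 105.8, 96.2 and 99.2 CPM in SMA against 91.7, 87.8 and 89.3 CPM in WT libraries after BaCl2, without overlap (0.16, SE 0.06, edgeR adjusted p = 0.157). After glycerol it stood at 6493, 6842, 6714 and 7121 normalized counts in SMA, against 6664, 6311, 6884 and 6378 in WT libraries, with overlap (0.05, limma adjusted p = 0.565). Btg2, an antiproliferative gene that also responds within minutes to growth signals, was at 253 to 341 CPM in SMA against 359 to 374 CPM in WT libraries after BaCl2 (-0.31, edgeR adjusted p = 0.0982) and at 0.02 after glycerol. The kinase genes Plk2 (-0.05 and 0.14 on the log2 scale after BaCl2 and glycerol) and Plk3 (-0.15 and -0.10), which are immediate early genes too, and Zfp365 (-0.06 and 0.10) overlapped in both injuries. The list of 18 other immediate early genes summed to 10980 to 13655 CPM in SMA against 12994 to 13272 CPM in WT libraries after BaCl2. After glycerol every SMA sum (1106100 to 1149400 normalized counts) was above every WT sum (991430 to 1030300), and 2 of the 18 passed as higher in limma. Their part in the values of Btg2, Plk2 and Plk3 was not tested.

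Of the 10 members that act in cell death at the mitochondrion or in the cytosol, 1 rose after BaCl2. Pmaip1, which encodes the BH3-only protein Noxa, was at 12.1, 12.9 and 11.3 CPM in SMA libraries 1 to 3, against 9.24, 9.07 and 9.09 CPM in WT libraries. All SMA libraries were above all WT libraries, with means of 12.1 ± 0.797 CPM in SMA and 9.13 ± 0.0919 CPM in WT (n = 3 each, 1.33-fold). It rose by 0.41 on the log2 scale (SE 0.09, edgeR adjusted p = 0.029). After glycerol Pmaip1 stood at 1434, 1335, 877 and 1632 normalized counts in SMA, against 1252, 907, 1079 and 1029 in WT libraries, where SMA library 3 was the lowest of all (0.28, SE 0.18, limma adjusted p = 0.387).

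**Figure D4:**
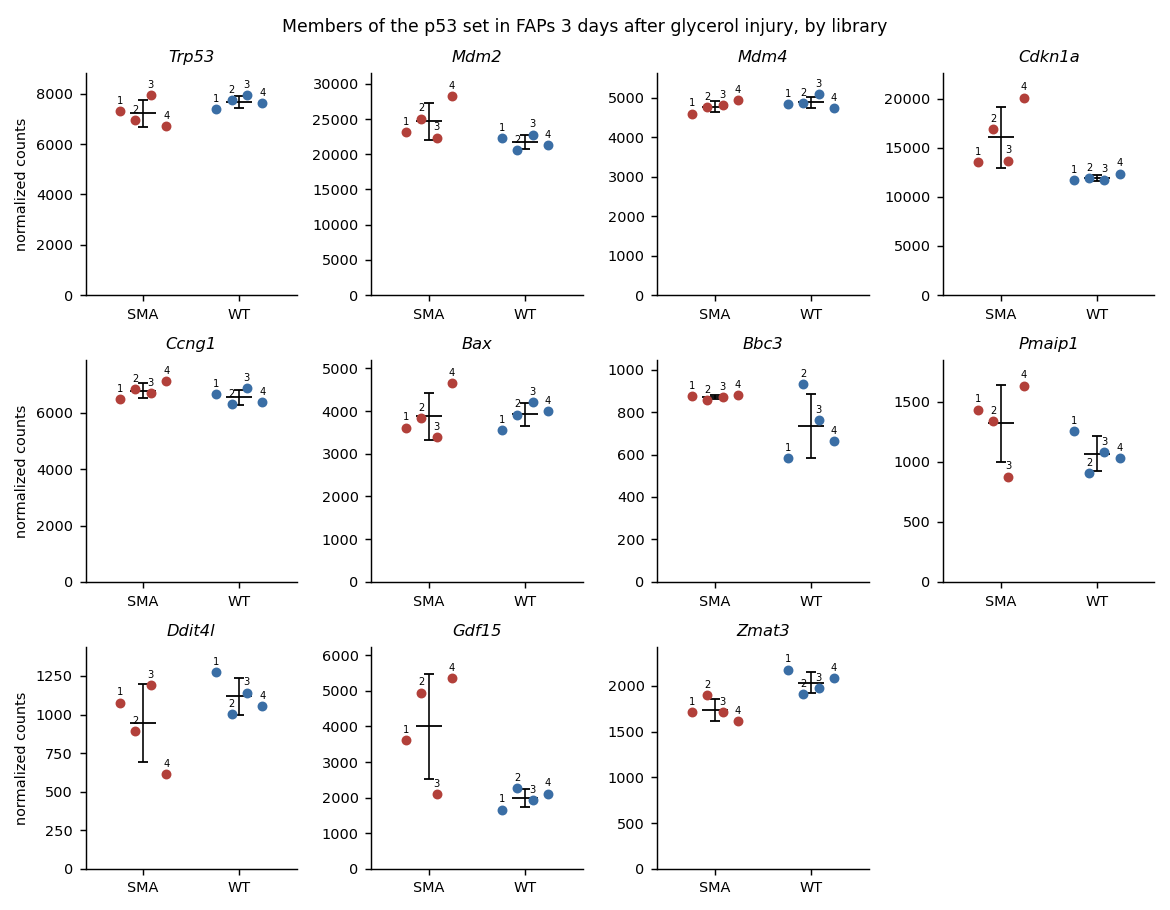
Normalized counts of the same 11 members in each glycerol library, SMA at the left and WT at the right of each panel; numbers are library numbers, and the black bar with whiskers is the mean ± SD (n = 4). Cdkn1a is the panel in which all SMA points lie above all WT points, Zmat3 that in which all lie below, and Gdf15 spreads from 2099 to 5356 in SMA.

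Bax, Bbc3 and Apaf1, other genes of this death route, did not pass in either injury. Bax, the pore former of the mitochondrial outer membrane, was at 31.5, 25.1 and 23.6 CPM in SMA against 24.3, 23.6 and 23.8 CPM in WT libraries after BaCl2, where SMA library 1 alone was high. After glycerol Bax was at 3613, 3842, 3399 and 4655 normalized counts in SMA and 3553, 3915, 4208 and 4006 in WT libraries. Its log2 fold changes were 0.16 (95% interval -0.06 to 0.38) after BaCl2 and -0.02 (-0.24 to 0.20) after glycerol. Bbc3, which encodes the BH3-only protein Puma, was at 11.7, 11.4 and 9.34 CPM in SMA against 9.80, 10.5 and 12.4 CPM in WT libraries after BaCl2 (-0.01, -0.28 to 0.25). After glycerol the SMA libraries lay close together at 876, 855, 871 and 879 normalized counts, within a WT spread of 583, 932, 764 and 662 (0.27, -0.03 to 0.56). Apaf1, the scaffold of the apoptosome, stood at -0.01 in both injuries.

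Zmat3, which encodes an RNA-binding p53 target, was on the low side after glycerol. It stood at 1716, 1900, 1714 and 1611 normalized counts in SMA, against 2177, 1911, 1977 and 2082 in WT libraries, without overlap (-0.23, SE 0.07, limma adjusted p = 0.0926). The authors' deposited table calls it lower (-0.23, adjusted p = 0.0293). After BaCl2 it was at 33.9, 28.1 and 26.3 CPM in SMA against 27.9, 29.5 and 27.9 CPM in WT libraries, with overlap (0.05, edgeR adjusted p = 0.84). Trp53inp1, a p53 cofactor that also acts in autophagy, was without overlap on the high side after glycerol (2276 to 2629 against 2027 to 2221 normalized counts, 0.18, limma adjusted p = 0.134) and at 0.01 after BaCl2. The nuclease gene Aen (0.13 after BaCl2 and -0.20 after glycerol), the Akt inhibitor gene Phlda3 (-0.16 and 0.08) and Ei24 (-0.05 in both) overlapped. Perp, a membrane protein gene, was near the floor after BaCl2 at 0.386 to 0.817 CPM in SMA against 0.277 to 0.499 CPM in WT libraries.

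None of the 3 death receptors, 4 DNA repair and nucleotide genes and 6 metabolic genes passed in edgeR or limma. The death receptor genes Fas (-0.03 and -0.05 after BaCl2 and glycerol), Tnfrsf10b (-0.19 in both) and Eda2r (0.09 and -0.13) did not pass, and Tnfrsf10b was without overlap on the low side after BaCl2 (26.4 to 33.1 against 34.1 to 34.7 CPM). The nucleotide excision repair genes Xpc (0.00 and 0.15) and Ddb2 (0.07 and 0.23), the lesion-bypass polymerase gene Polk (-0.06 and 0.05) and Rrm2b, a subunit of ribonucleotide reductase (0.00 and 0.06), did not pass either. Of these Ddb2 was without overlap after glycerol, at 318 to 329 normalized counts in SMA and 248 to 313 in WT libraries (limma adjusted p = 0.22).

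Among the metabolic genes Ddit4l, which encodes a restraint on the growth kinase mTOR, had the largest difference after BaCl2 of members at 1 CPM or more. It was at 6.39, 7.54 and 11.9 CPM in SMA libraries 1 to 3, against 15.6, 12.9 and 15.3 CPM in WT libraries. Every SMA library was below every WT library, at 0.591 of the WT mean, and the log2 fold change was -0.76 (SE 0.20, edgeR adjusted p = 0.0605). The authors' deposited table calls it lower (-0.75, adjusted p = 0.00326). After glycerol it stood at 1077, 890, 1193 and 614 normalized counts in SMA, against 1274, 1001, 1143 and 1057 in WT libraries, with overlap (-0.28, limma adjusted p = 0.398). Ephx1, an epoxide-detoxifying enzyme gene, was without overlap on the low side after BaCl2 (49.7 to 59.4 against 63.9 to 68.5 CPM, -0.26, edgeR adjusted p = 0.0754). The sestrin genes Sesn1 (-0.06 and 0.18 after BaCl2 and glycerol) and Sesn2 (-0.01 and 0.03), Tigar (-0.05 and -0.14), which lowers glycolysis, and the mitochondrial reductase gene Fdxr (-0.09 and -0.19) overlapped in both.

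The edgeR adjusted p-values of Mdm2, Cdkn1a and Pmaip1 after BaCl2 were 0.0274, 0.0479 and 0.029. With 1 library left out they rose to as much as 0.12, 0.191 and 0.138, while the log2 fold changes stayed above 0. Mdm2, Cdkn1a and Pmaip1 passed when SMA library 3 was left out and lost the pass without any other single library (SMA 1 or 2, or WT 1, 2 or 3), with log2 fold changes over the 6 fits of 0.28 to 0.38, 0.29 to 0.46 and 0.36 to 0.46. With SMA libraries 1 and 2 both left out they stood at 0.24, 0.16 and 0.31, and edgeR called 0 members and 108 genes in all. After glycerol, leaving out SMA library 3 brought a pass for Cdkn1a (0.48, limma adjusted p = 0.03), Gdf15 (1.21, adjusted p = 0.00185) and Pmaip1 (0.46, adjusted p = 0.0381), while the calls over all genes went to 1645, against 411 with all libraries. Without each of the other 7 libraries none of the 3 passed. Over the 8 fits Cdkn1a ranged from 0.30 to 0.49 (limma adjusted p up to 0.201), Gdf15 from 0.76 to 1.21 (up to 0.204) and Pmaip1 from 0.17 without SMA library 4 (adjusted p = 0.659) to 0.46. The authors' deposited tables call 7 of 32 members after BaCl2 (4 higher, 3 lower, beside 13.8% of the genes with an adjusted p) and 3 of 32 after glycerol (beside 12.5%). The 4 higher and 3 lower after BaCl2 are Mdm2, Cdkn1a, Ccng1 and Pmaip1, and Btg2, Ephx1 and Ddit4l.

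The SMA effect on the members was then compared between the injuries, by subtracting the BaCl2 log2 fold change from the glycerol one. None of 32 members passed the z test, beside 10.5% of 13960 genes (5.53% higher, 5.0% lower). Of the members 4 had an unadjusted p under 0.05, beside 24.6% of all genes, and limma for both injuries called 0 as well. The 95% interval of the difference was -0.23 to 0.34 for Cdkn1a, -0.35 to 0.05 for Mdm2, -0.52 to 0.27 for Pmaip1 and -0.13 to 1.1 for Gdf15. The smallest adjusted p-values were those of Btg2 (0.33, adjusted p = 0.0703) and Zmat3 (-0.28, adjusted p = 0.0953).

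Of 26 other genes that act on p53, its kinases, modifying enzymes, relatives and cofactors, 25 were tested in each injury. None passed after BaCl2 in edgeR or after glycerol in limma, with 5 and 4 at an unadjusted p under 0.05, and the authors' deposited tables call 1 higher after BaCl2 (Atm) and 0 after glycerol. Their difference between injuries passed for 3 of 25 (12%), all lower in glycerol minus BaCl2. This is near the 10.5% of all genes that passed the same test, so the count says nothing particular of these genes, and the 3 are given as the ones that passed. Atm, the kinase that signals DNA breaks to p53, was at 32.4, 32.0 and 31.1 CPM in SMA against 25.5, 22.3 and 28.3 CPM in WT libraries after BaCl2. After glycerol it was at 1875, 1873, 2241 and 1378 normalized counts in SMA against 2397, 2181, 2810 and 2014 in WT libraries. The log2 fold change was 0.33 after BaCl2, where the libraries did not overlap, and -0.36 after glycerol, where they did, a difference of -0.69 (SE 0.17, z test adjusted p = 0.00288).

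Atr, the kinase that answers to stalled replication, stood at 24.1, 23.8 and 23.2 CPM in SMA against 19.3, 20.7 and 23.3 CPM in WT libraries after BaCl2. After glycerol it was at 1735, 1681, 1793 and 1432 normalized counts in SMA and 2275, 1755, 2016 and 1904 in WT libraries. Its log2 fold changes of 0.17 and -0.26 differed by -0.42 (SE 0.13, z test adjusted p = 0.0137). Usp7, which removes ubiquitin from Mdm2 and p53, was at 139, 133 and 136 CPM in SMA against 123, 126 and 129 CPM in WT libraries after BaCl2, and at 8198 to 8760 normalized counts in SMA and 8930 to 9220 in WT libraries after glycerol. Its libraries did not overlap in either injury, on the high side after BaCl2 and the low side after glycerol (difference -0.21, SE 0.07, adjusted p = 0.0262). Atr lost the pass without WT library 1 of BaCl2 (adjusted p = 0.0502), and Usp7 without 6 of the 14 libraries left out in turn (up to 0.0909), while Atm kept it without each.

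**Figure D5:**
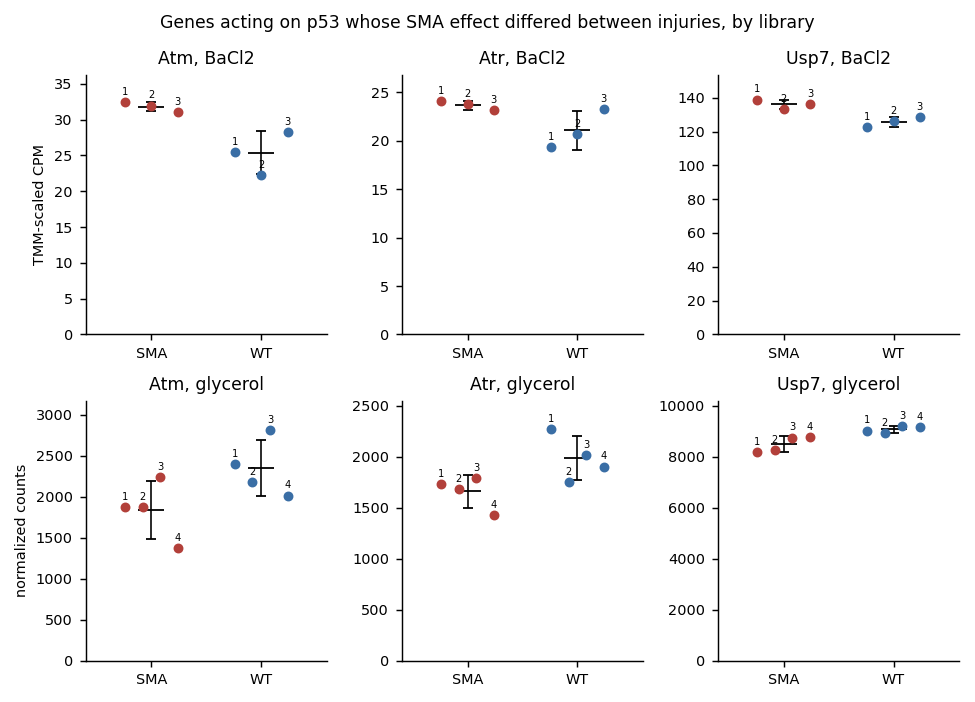
Levels of Atm, Atr and Usp7 in each library, in TMM-scaled CPM after BaCl2 (top) and normalized counts after glycerol (bottom), SMA at the left and WT at the right of each panel; numbers are library numbers, and the black bar with whiskers is the mean ± SD (n = 3 and n = 4). The SMA mean lies above the WT mean in the top row and below it in the bottom row.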

How the data were processed

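The BaCl2 values are whole-number counts per gene and library as deposited, and the glycerol values are signal, the authors' normalized counts, as deposited. The log2 fold changes and the p-values in the files are the authors' own per the file headers, SMA over WT. Another 6 per-sample columns (z-scores) were not used. The submitters' processing notes name fastp, Salmon, featureCounts and DESeq2. Aligner, build and the tool behind each table: not given in the sources used here. Per the labels' protocols the libraries were poly(A)-selected and directional.

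Counts were filtered with filterByExpr, scaled by TMM (0.953 to 1.05) and tested with edgeR 4.0.16 by quasi-likelihood (R 4.3.3). Glycerol values were tested as log2(value + 1) with limma 3.58.1 with a mean-variance trend, since counts could not be had; the plan allowed for this. The log2 fold changes after glycerol are on that scale. Values given as -fold are ratios of the group means of CPM or normalized counts. P-values were adjusted over all genes by Benjamini and Hochberg, with a threshold of 0.05. The z test of the difference takes the standard errors as known. DESeq2 1.42.0 was an alternative. Intervals are 95%. Exact permutation tests were run for 11 members in each injury, 22 in all.

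The members and lists were chosen with earlier results of these data known. Values in every library are given for 8 core members, for members that passed, and for the 3 with the largest change in each injury (at 1 CPM or more, or above the median mean of 1385 normalized counts). Other members are given by value or range, and pathway genes are named where they passed. Markers came from 9 lists of general knowledge. The steps were tested on simulated data. The promoter sequences are those of RefSeq on GRCm38.p6.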

Additional observations from a re-analysis of the deposited data

Results flagged for a closer look

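In groups of 4 glycerol libraries, 64 tests for a library far from the other 3 were made over the members, and 3 were positive, where chance gives about 1 in 20. Fas was at 1884 normalized counts in WT library 4, against 1150 to 1230 in the other WT libraries. Fdxr was at 913 normalized counts in SMA library 4, against 1288 to 1308 in the other SMA libraries. Ephx1 was at 4430 normalized counts in WT library 2, against 3635 to 3659 in the other WT libraries.

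Of the genes acting on p53, 3 had an SMA effect that differed between the injuries by the z test, at -0.69 for Atm, -0.42 for Atr and -0.21 for Usp7 (log2 scale, glycerol minus BaCl2). They are 3 of 25 tested (12%), near the 10.5% of all genes that passed. The injury is also the batch, and the tables were normalized separately.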

How the results depend on the processing

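The count of members called after BaCl2 was 3, and 3 with DESeq2 size factors or a mean of at least 1 CPM. It was 7 with no filter on low counts and 7 with DESeq2 (Btg2, Gdf15, Ephx1 and Ddit4l added in both, with 1867 and 1698 genes called in all), and 0 to 6 with each library left out. Without SMA libraries 1 and 2, chosen after seeing the data and with the lone SMA library assumed to vary like the WT ones, it was 0, with Bax at -0.018, Gdf15 at -0.040, Zmat3 at -0.11 and Smn1 at -0.51 (edgeR adjusted p = 0.106). After glycerol the count was 0 under pseudocounts of 0.5 and 10, the median filter, quantile normalization and no trend, and 0 to 3 with a library left out. A fit without SMA libraries 2 and 4 of glycerol also called 0 members, with smaller Gdf15 and Cdkn1a changes; its values are not given because those libraries had been picked by their Gdf15 level. The difference called 0 with limma for both injuries and a pseudocount of 10, and 0 to 4 with a library left out. Same-numbered SMA and WT libraries, centred within each group, correlated at 0.06, -0.13 and 0.09 after BaCl2 and at 0.07, -0.07, 0.02 and 0.00 after glycerol. Differently numbered ones correlated at -0.13 to 0.11 after BaCl2 and at -0.10 to 0.10 after glycerol. No pairing by the numbers was seen, but so few centred libraries cannot exclude it. With the replicate block 6 members were called after BaCl2, 0 after glycerol and 1 in the difference (Btg2). The calls over all genes also moved between fits, with 863 after BaCl2 in the main fit against the 1867 and 1698 above. A change in the count of members called therefore says nothing particular of the members. Smn1 after glycerol was -0.54 with the replicate block (limma adjusted p = 0.0715) and -0.54 with no trend (0.0641). With each library left out Smn1 ranged from -0.59 to -0.46 after BaCl2 and from -0.61 to -0.47 after glycerol. It kept an adjusted p under 0.05 in 3 of the 6 fits after BaCl2 (edgeR, up to 0.0752) and in 1 of the 8 after glycerol (limma, up to 0.113). Log2 values that changed sign with a library left out were those of Trp53 (-0.14 to 0.027), Mdm4 (-0.0094 to 0.088), Bbc3 (-0.088 to 0.0895) and Zmat3 (-0.061 to 0.13) after BaCl2, Bax after glycerol (-0.11 to 0.036), and the differences of Trp53 (-0.12 to 0.046), Cdkn1a (-0.062 to 0.13) and Pmaip1 (-0.24 to 0.055). The causes were not tested. The depth of the glycerol libraries is unknown.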
